A study of Rattus norvegicus with 18 samples.

Results

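The genes described here are 10 enzymes of purine salvage and breakdown, Nt5e, Ampd2, Ampd3, Ada, Pnp, Gda, Xdh, Hprt1, Aprt and Adk. They were chosen by their place in the pathway that 8-aminoguanine (8-AG), an endogenous inhibitor of purine nucleoside phosphorylase (PNPase), acts on. All 10 were found among the 32285 genes of the retina table and the 32552 genes of the RPE/choroid table. RPE/choroid is the retinal pigment epithelium (RPE) together with the choroid, the vascular layer behind it.

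Bulk RNA-Seq was performed on 18 libraries from female Fischer344 rats with no genetic modification, 9 of neural retina and 9 of RPE/choroid. Each tissue had 3 libraries from young rats (4 months old), 3 from aged rats (24 months old) that drank plain water, and 3 from aged rats of the same age that received a daily 8-AG dose of 5 mg/kg through their drinking water, over 8 weeks starting at 22 months. The young rats were untreated. 8-AG was compared with plain water at equal age, and no young group received 8-AG. The labels do not say whether each library came from a separate rat, and P values therefore measure the spread between these libraries. In RPE/choroid, young libraries 1 and 2 share a number in their labels and differ by the letter L or R, as do aged libraries 1 and 2. What this number stands for is not stated. The labels give total RNA as the molecule for the 3 8-AG retina libraries and polyA RNA for the other 15, although the protocol describes poly-A capture. The retina table names its treated columns Compound, and these were read as the 8-AG libraries because no other treated retina group is labelled. The retina libraries held 12283458 to 15644346 counts, and the RPE/choroid libraries held 28573828 to 48203050 counts. Levels are given as CPM, counts scaled to the size of the library after TMM (edgeR's trimmed mean of M values). They are not divided by transcript length, so levels were not compared between genes, nor between the tissues, which were counted separately.

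Purine nucleotides are broken down to nucleosides, then to bases, and finally to uric acid. CD73, the product of Nt5e, releases adenosine from AMP outside the cell, AMP deaminases (Ampd2 and Ampd3) convert AMP to IMP inside it, and adenosine deaminase (Ada) converts adenosine to inosine. PNPase (Pnp) splits inosine and guanosine into hypoxanthine and guanine. Guanine deaminase (Gda) turns guanine into xanthine, and xanthine dehydrogenase (Xdh) oxidizes hypoxanthine and xanthine to uric acid and can generate reactive oxygen species in its oxidase form. Salvage runs the other way. Hprt1 returns hypoxanthine and guanine to nucleotides, Aprt does so for adenine, and adenosine kinase (Adk) for adenosine. Purine metabolites of these tissues are not analysed here, and the question was whether the transcripts of these enzymes differed with age and with 8-AG.

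The promoters of the enzymes whose transcripts differed most with age are shown first, with that of Pnp, whose product 8-AG inhibits. RefSeq held a promoter on build GRCr8 for 9 of the 10 genes, and Ampd3 had no entry. Each sequence runs 5′ to 3′ on the strand of the gene over the 250 bases before its start. Capitals mark matches, on either strand, to 4 motifs. The TATA box was searched as the letters TATAAA and the CCAAT box by the letters of its name. The GC box, a common site in promoters without a TATA box, was searched as the letters GGGCGG. The STAT site was searched as TTCNNNGAA. Gda lies at chr1:228408902-228409151 (minus strand), Xdh at chr6:27282069-27282318 (plus strand), Ada at chr3:172842284-172842533 (minus strand), Nt5e at chr8:98150675-98150924 (plus strand) and Pnp at chr15:26643897-26644146 (plus strand).
Gda: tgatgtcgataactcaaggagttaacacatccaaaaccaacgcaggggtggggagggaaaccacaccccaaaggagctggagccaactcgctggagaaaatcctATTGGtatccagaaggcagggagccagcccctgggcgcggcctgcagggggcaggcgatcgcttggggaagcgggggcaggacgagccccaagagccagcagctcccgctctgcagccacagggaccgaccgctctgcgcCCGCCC
Xdh: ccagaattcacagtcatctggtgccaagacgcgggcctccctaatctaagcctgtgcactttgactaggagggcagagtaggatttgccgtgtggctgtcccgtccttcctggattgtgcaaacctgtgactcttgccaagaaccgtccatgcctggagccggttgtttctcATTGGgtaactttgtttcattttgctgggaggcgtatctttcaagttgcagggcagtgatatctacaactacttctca
Ada: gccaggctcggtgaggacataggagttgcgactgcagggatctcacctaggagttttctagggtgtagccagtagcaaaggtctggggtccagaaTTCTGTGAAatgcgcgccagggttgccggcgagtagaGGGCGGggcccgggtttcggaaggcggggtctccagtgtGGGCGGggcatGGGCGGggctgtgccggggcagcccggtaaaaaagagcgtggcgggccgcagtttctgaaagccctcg
Nt5e: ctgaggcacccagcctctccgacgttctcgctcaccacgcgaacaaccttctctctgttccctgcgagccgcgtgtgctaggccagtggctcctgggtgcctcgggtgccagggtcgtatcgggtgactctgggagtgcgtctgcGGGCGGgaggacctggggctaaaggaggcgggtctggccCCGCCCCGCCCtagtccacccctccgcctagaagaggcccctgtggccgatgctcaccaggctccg
Pnp: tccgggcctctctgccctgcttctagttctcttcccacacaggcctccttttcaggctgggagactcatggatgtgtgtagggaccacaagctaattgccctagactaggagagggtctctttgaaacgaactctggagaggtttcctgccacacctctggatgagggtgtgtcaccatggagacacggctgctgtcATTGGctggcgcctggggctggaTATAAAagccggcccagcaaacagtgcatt
Among all 33469 rat promoters of this length, 12.9% held TATAAA, 34.0% CCAAT, 30.5% GGGCGG, 7.67% TTCNNNGAA and 3.41% an interferon response element (GAAA repeated after any 2 bases). Pnp carried a TATAAA whose first base lay 30 bases before the start, and Aprt was the only other enzyme with that motif in this window. CCAAT was found in 5 of the 9 promoters (Pnp, Gda, Xdh, Aprt and Adk) and GGGCGG in 7 (all but Pnp and Xdh). TTCNNNGAA was found in Ada alone, 155 bases before the start. This pattern reads the same on both strands, so any match to it lies on both. The interferon response element was found in none of the 9. A match describes these letters only, and no binding was measured.

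In retina, transcripts of the enzymes that lead from guanine to uric acid were higher in aged than in young rats, with Gda up 5.21-fold and Xdh up 1.74-fold. Ada was 4.23-fold higher and Nt5e was 2.17-fold lower. The salvage enzymes and the AMP deaminases showed no called difference. A gene was called at a Benjamini-Hochberg adjusted p under 0.05 over all genes tested (edgeR quasi-likelihood F test). By this rule 3 of the 10 enzymes were higher and 1 was lower, where 14.5% of the 14587 genes tested were called, 7.29% higher and 7.26% lower. The study's own rule, over 1.5-fold with an unadjusted P under 0.05, took the same 4 enzymes and 8.84% of all genes. The young and aged values did not overlap for 5 of the 10 enzymes, and for 35.3% of all genes. The median log2 fold change of the 10 was 0.15, beside 0.0019 over all genes tested.

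Nt5e, which makes extracellular adenosine and is also known as a surface marker of rod photoreceptors and their precursors, stood at 141, 148 and 161 CPM in the young retinae. It was 76.3, 55.3 and 76.2 CPM in the aged retinae and 76.6, 92.4 and 84.1 CPM in the 8-AG retinae. All 3 young libraries lay above all 6 aged ones, treated or not. The aged mean of 69.3 ± 12.1 CPM (SD, n = 3) was below the young mean of 150 ± 10.1, a log2 fold change of -1.12 (SE 0.13, 95% interval -1.41 to -0.82, adjusted p = 0.00163 by edgeR). The summed level of 14 rod markers moved the same way, from 59487 to 64659 CPM in young retinae to 37479 to 42461 CPM in aged and 38554 to 50547 CPM in 8-AG retinae. Of these 14 markers, 11 were called lower in aged retinae and none higher (median log2 fold change -0.63), and none was at 0 in any group. The part of the rod markers' decline in the Nt5e value was not tested, and in bulk tissue fewer cells of a type cannot be told apart from less RNA per cell.

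Neither AMP deaminase was called. Ampd2, expressed widely, ranged from 60.4 to 67.4 CPM in young, 57.4 to 67.1 CPM in aged and 51.5 to 64.1 CPM in 8-AG retinae. Its log2 fold change from young to aged was -0.0023 (SE 0.08, 95% interval -0.17 to 0.17). Ampd3, the isoform named for red blood cells, ranged from 27.3 to 30.5 CPM in young retinae and from 25.7 to 38 CPM in aged ones, with a log2 fold change of 0.06 (SE 0.14, 95% interval -0.26 to 0.38). Its highest value belonged to the first aged library, and the groups overlapped.

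Ada, which deaminates adenosine, was barely detected in retina. The libraries held 3, 2 and 4 counts in young, 12, 15 and 14 in aged and 9, 8 and 10 in 8-AG rats. On the CPM scale these were 0.23, 0.15 and 0.27 in young, 0.94, 0.96 and 0.97 in aged and 0.70, 0.65 and 0.67 in 8-AG retinae, so the 3 groups did not overlap. The log2 fold change from young to aged was 2.08 (SE 0.42, 95% interval 1.14 to 3.02, adjusted p = 0.00954 by edgeR). The call depended on the test. The Wald test of DESeq2 gave 2.12 with an adjusted p of 0.076, while edgeR with no filter on low counts gave an adjusted p of 0.0109, and the cause was not tested. The deposited TMM-normalized values, tested with limma as log2(value + 0.5), gave 1.02, a scale that understates changes of genes this low.

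Pnp encodes PNPase, which 8-AG inhibits. It stood at 20.9, 20.5 and 20.4 CPM in young retinae, 24.4, 26.8 and 22.4 CPM in aged retinae and 23.8, 23.9 and 25.2 CPM in 8-AG retinae. All 3 aged values exceeded the 3 young ones, but the difference was small, a log2 fold change of 0.25 (SE 0.09, 95% interval 0.06 to 0.45). Its unadjusted P was 0.0172 and its adjusted p was 0.0867 (edgeR), so it was not called.

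Gda, which commits guanine to breakdown, was at 1.31, 0.75 and 0.88 CPM in young retinae, from 17, 10 and 13 counts. It was at 3.67, 7.97 and 3.66 CPM in aged retinae and 5.33, 5.87 and 5.15 CPM in 8-AG retinae. The second aged library was far above the other aged ones, and the lowest aged value was still above the highest young value. The log2 fold change was 2.38 (SE 0.39, 95% interval 1.505 to 3.26, adjusted p = 0.00398 by edgeR), and it was 1.90 to 2.64 when each library in turn was left out, still called each time.

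Xdh, the source of uric acid, was at 7.63, 7.68 and 8.45 CPM in young, 12.0, 16.5 and 12.9 CPM in aged and 12.9, 12.5 and 11.2 CPM in 8-AG retinae. Again the young libraries lay below all others, and the second aged library was the highest. The log2 fold change from young to aged was 0.80 (SE 0.14, 95% interval 0.49 to 1.12, adjusted p = 0.00489 by edgeR).

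The 3 enzymes that rose were accompanied by markers of microglia and macrophages, the resident and infiltrating immune cells. The summed level of 14 such markers was 52.4 to 53.3 CPM in young, 155 to 267 CPM in aged and 187 to 198 CPM in 8-AG retinae. All 12 of these markers that passed the expression filter were called higher in aged retinae (median log2 fold change 2.01). The summed level of 7 red blood cell genes was 25.0 to 43.7 CPM in young, 80.7 to 395 CPM in aged and 55.8 to 135 CPM in 8-AG retinae. That of 8 fibroblast and stroma markers was 54.1 to 138 CPM in young, 153 to 235 CPM in aged and 168 to 228 CPM in 8-AG retinae. For all 3 lists the sum in every aged and 8-AG library lay above that in every young one. The members differed, however. Of the red blood cell genes 3 passed the expression filter in aged against young retinae, all with a positive log2 fold change (median 2.38), and of the fibroblast and stroma markers 3 passed, 1 with a positive and 2 with a negative one (median -0.10), none of either list called. The second aged library, highest for Gda and Xdh, also had the highest microglial sum and the 395 CPM of red blood cell genes, where the other aged libraries had 80.7 and 89.0 CPM. The lens marker sum differed as well, from 171 to 6836 CPM in young to 19.1 to 25.0 CPM in aged retinae, with the first 8-AG library at 1867 CPM. The sums of RPE markers (378 to 488 CPM in young, 301 to 511 CPM in aged retinae) and endothelial markers (704 to 768 and 680 to 792 CPM) overlapped. Most of their members still had a positive log2 fold change with age. These were 10 of 14 RPE markers (median 0.71, 1 called lower) and 10 of 11 endothelial markers (median 0.64, 1 called higher). In 8-AG against young retinae 11 of 13 RPE markers had a positive one (median 1.37). The part of these cells in the values of Gda, Ada, Xdh and Pnp was not tested.

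The salvage enzymes overlapped between groups. Hprt1 ranged from 161 to 182 CPM in young, 157 to 176 CPM in aged and 150 to 194 CPM in 8-AG retinae, and its log2 fold change with age was -0.04 (SE 0.07, 95% interval -0.20 to 0.11). Aprt ranged from 3.78 to 6.55 CPM in young and from 5.77 to 6.57 CPM in aged retinae, a log2 fold change of 0.19 (SE 0.21, 95% interval -0.28 to 0.66). Adk ranged from 27.7 to 30.1 CPM in young and from 28.3 to 35.3 CPM in aged retinae, a log2 fold change of 0.11 (SE 0.10, 95% interval -0.10 to 0.33). These intervals leave room for changes of up to 1.58-fold for Aprt and 1.26-fold for Adk.

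**Figure D1:**
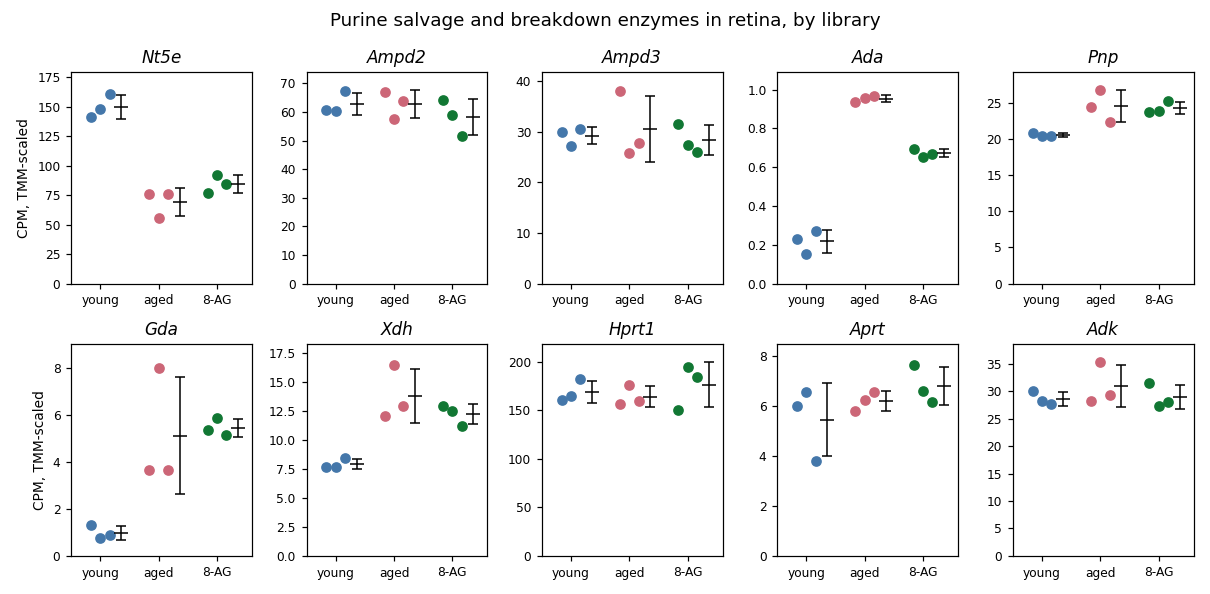
CPM (TMM-scaled, linear axes from 0) of each enzyme gene in the 9 retina libraries, 1 point per library, with the mean and SD (n = 3) of each group in black. The young points lie above all others for Nt5e (141 to 161 CPM) and below all others for Ada, Pnp, Gda and Xdh, while the groups overlap for the other 5 genes.

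Between 8-AG-treated and untreated aged retinae none of the 10 enzymes was called by either rule. Of the 14630 genes tested, 3 (0.0205%) had an adjusted p under 0.05 by edgeR and 0.957% met the study's rule, while 537 had an unadjusted P under 0.05. DESeq2 called 18 genes and none of the 10 enzymes. Log2 fold changes of the enzymes ran from -0.50 to 0.28, with adjusted p of 0.996 for each by edgeR. Pnp itself was 24.3 ± 0.79 CPM in 8-AG retinae and 24.5 ± 2.20 CPM in aged ones (SD, n = 3), a log2 fold change of -0.02 (SE 0.10, 95% interval -0.24 to 0.21). Xdh gave -0.18 (95% interval -0.51 to 0.14) and Gda gave 0.08 (95% interval -0.60 to 0.76).

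For 2 of the 10 enzymes the treated and untreated aged values did not overlap, beside 8.76% of all genes. Ada was lower in all 3 8-AG retinae, a log2 fold change of -0.50 (SE 0.32, 95% interval -1.21 to 0.21) that rests on 8 to 10 counts against 12 to 15. Nt5e was higher in all 3, with 76.6 CPM in the lowest treated library and 76.3 CPM in the highest untreated one, a log2 fold change of 0.28 (SE 0.13, unadjusted P = 0.0617 by edgeR). With 3 libraries a group, an exact permutation test over libraries cannot give a two-sided p below 0.1. The intervals of Hprt1 (-0.13 to 0.33), Aprt (-0.23 to 0.48), Adk (-0.35 to 0.14), Ampd2 (-0.33 to 0.11) and Ampd3 (-0.46 to 0.23) all spanned 0 on the log2 scale. The surface epithelium markers were higher in the 8-AG retinae, at 27.3 to 54.5 CPM in sum over 9 genes against 5.3 to 9.0 CPM in aged ones. Of 13 RPE markers tested, 12 had a positive log2 fold change (median 0.61) and none was called. Their sums overlapped, at 442 to 636 CPM in 8-AG and 301 to 511 CPM in aged retinae. The part of either list in these values was not tested.

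The 8-AG-treated aged retinae were also compared with the young ones, a comparison that shares its libraries with both others. Of the 10 enzymes 9 passed the expression filter, 2 were called higher and 1 lower, where 14.9% of 14541 genes were called, 7.78% higher and 7.11% lower. Gda had a log2 fold change of 2.47 (SE 0.25, adjusted p = 0.000293 by edgeR) and Xdh of 0.62 (SE 0.12, adjusted p = 0.00951). Nt5e had a log2 fold change of -0.83 (SE 0.08, adjusted p = 0.00023). Pnp gave 0.24 (SE 0.09, unadjusted P = 0.02, adjusted p = 0.0948) and was not called. Ada was left out by the filter, and without a filter its log2 fold change was 1.56 (SE 0.58, adjusted p = 0.0922). The study's rule took the same 3 enzymes, and 8.58% of all genes. Without the first 8-AG retina library it took Nt5e and Gda but not Xdh, with 8.1% of all genes. Groups did not overlap for 4 of the 9 enzymes tested and for 35.5% of all genes. Adk, Aprt, Ampd2, Ampd3 and Hprt1 had log2 fold changes of 0.02, 0.32, -0.11, -0.05 and 0.06, none of them called.

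**Figure D2:**
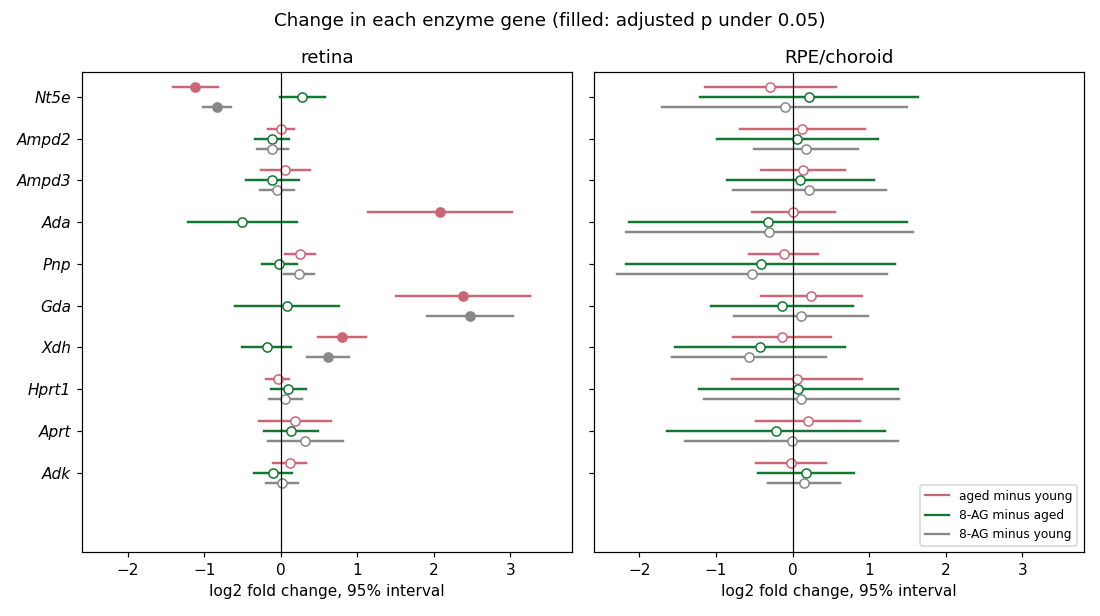
Log2 fold change (x axis) of each enzyme gene in retina and RPE/choroid with its 95% interval from edgeR, for aged minus young, 8-AG minus aged and 8-AG minus young (not shown for Ada in retina, which failed the filter). Filled points, at an adjusted p under 0.05, are Nt5e, Ada, Gda and Xdh in retina, while all RPE/choroid intervals cross 0.

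Other genes of purine metabolism were examined as lists, to be read against the 14.5% of all genes called between aged and young retinae. Of 24 further salvage and breakdown genes, 20 were tested in aged against young retinae, 1 was called higher and none lower (median log2 fold change 0.0038). The one called was Gmpr, whose reductase returns GMP to IMP, at 21.7 ± 2.03 CPM in aged and 16.3 ± 0.49 CPM in young retinae (adjusted p = 0.0182 by edgeR). Of 18 genes of de novo synthesis, 15 were tested and 2 were called lower. Impdh1, the IMP dehydrogenase that is abundant in photoreceptors, had a log2 fold change of -0.61 (SE 0.08, adjusted p = 0.000882) and Prps1, which makes the ribose donor, of -0.20 (SE 0.06, adjusted p = 0.0451). Of 13 transporters of nucleosides, bases and uric acid, 7 were tested, 1 was called higher and 2 lower. By the study's rule, met by 8.84% of all genes, the salvage and breakdown list gave 0 higher and 1 lower. That rule gave 0 and 1 for de novo synthesis and 2 and 2 for the transporters.

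Among the transporters, the purine base carrier Slc43a3 was 7.32 ± 1.45 CPM in aged and 2.90 ± 0.67 CPM in young retinae, a log2 fold change of 1.33 (SE 0.22, adjusted p = 0.00376 by edgeR). The nucleoside transporter Slc29a1 (ENT1) was 58.7 ± 11.6 CPM in aged and 117 ± 9.68 CPM in young retinae, a log2 fold change of -1.002 (SE 0.15, adjusted p = 0.00752). The concentrative transporter Slc28a2 had a log2 fold change of -0.69 (SE 0.19, adjusted p = 0.0356). Rod markers fell and microglial markers rose in the same libraries, as given above, and their part in these values was not tested.

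Between 8-AG and aged retinae none of these genes was called in any of the 3 lists, and the lowest P values belonged to Adal (log2 fold change -0.19), Nt5c2 (-0.11), Pfas (-0.24), Prps2 (0.53), Slc43a3 (-0.30) and Slc29a1 (0.14). Between 8-AG and young retinae Gmpr (log2 fold change 0.42, adjusted p = 0.0306 by edgeR) and Slc43a3 (1.04, adjusted p = 0.0161) were called higher. Impdh1 (-0.67, adjusted p = 0.000203), Slc29a1 (-0.85, adjusted p = 0.00156) and Aox1, an aldehyde oxidase related to Xdh (-0.54, adjusted p = 0.0387), were called lower. The study also plotted 5 deaminases that act on RNA, Adar, Adarb1, Adarb2, Adat1 and Adat2. As these were picked on the same samples they are no independent evidence, and none of the 5 was called in any comparison, the nearest being Adar in aged against young retinae (log2 fold change 0.18, SE 0.06, adjusted p = 0.0637).

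The genes whose pattern over the 9 retina libraries was most like that of an enzyme were sought among 13514 genes with a mean of at least 1 CPM, by Pearson correlation of log2(CPM + 0.5). For Pnp they were RT1-Db1 (r = 0.984), Rnaset2 (0.980) and Cd74 (0.973). RT1-Db1 had means of 0.12, 8.74 and 4.09 CPM in young, aged and 8-AG retinae, and Cd74 had means of 1.11, 40.7 and 16.8 CPM. For Gda they were Ncf1 (r = 0.990), Ccdc91 (0.986) and Rarres1 (0.986), and Ncf1 had means of 1.89, 6.76 and 6.53 CPM. For Xdh they were Msrb2 (r = 0.992), Calca (0.992) and Lad1 (0.982), with means of 5.86, 11.5 and 10.5 CPM for Msrb2. The 9 points share 3 groups and the same libraries, and these values are descriptions.

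Hprt1 needed care, because the annotation holds 2 identifiers for it, ENSRNOG00000048561, which the RPE/choroid tables name Hprt1, and ENSRNOG00000031367. The deposited retina value for the symbol is the sum of both, and that sum is used above. In retina the first identifier held only 3.76% to 12.3% of the 1941 to 2762 counts in a library. In RPE/choroid it held 61 to 137 counts and the second held 98 to 250, and both together made 4.52 to 10.8 CPM before scaling. RSEM shares reads between near-identical genes, while the counting of the RPE/choroid reads is not given in the sources used here. The RPE/choroid values of Hprt1 are uncertain for that reason. Nt5e also had fractional expected counts in retina.

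**Figure D3:**
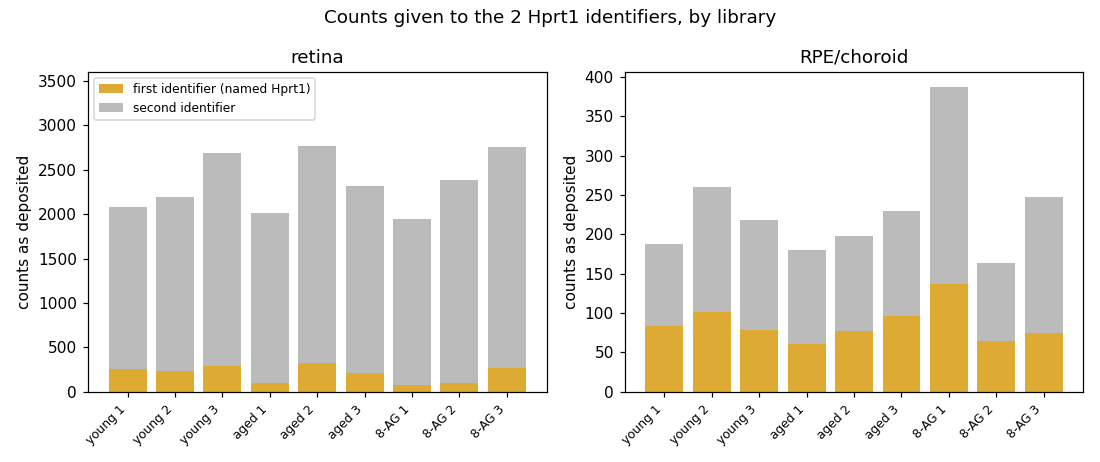
Counts as deposited for the 2 Hprt1 identifiers in each library, stacked, with separate linear axes for retina and RPE/choroid. In retina the second identifier holds most of the 1941 to 2762 counts, and in RPE/choroid both together reach at most 387 counts although those libraries are deeper.

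In RPE/choroid 1 library stood apart and is described before the results. The first 8-AG library had a rod marker sum of 58653 CPM, where the other 8 had 732 to 20826 CPM. Its sum over 14 RPE markers was 6807 CPM, beside 10545 to 19617 CPM in the others. Its microglial and endothelial marker sums were 630 and 751 CPM, each the lowest of the 9 libraries. Its surface epithelium sum of 1479 CPM over 9 genes was the highest, but the other 8-AG libraries, at 72.7 and 320 CPM, also lay above all 6 libraries of the young and aged groups (41.4 to 65.3 CPM). Leaving the first library out therefore leaves a difference in these markers between the 8-AG group and the others, and its part in the 8-AG results was not tested. It also had the lowest Pnp, Ada, Aprt, Xdh and Gda and the highest Nt5e, Ampd3 and Hprt1 of the 9 libraries. Log2 fold changes that involve the 8-AG group are therefore given with and without it, and counts over all genes are with it unless stated. None of the 14 RPE markers was listed at 0, while Cldn5, of the 11 endothelial ones, was. The other 8 libraries differed in rod markers, from 732 to 2139 CPM in 4 of them to 12176 to 20826 CPM in the other 4. The remaining 8-AG libraries, at 992 and 964 CPM, were both low, beside a young library at 2139 CPM and an aged one at 732 CPM. All the high ones were young (18749 and 20826 CPM) or aged (12176 and 17608 CPM). Leaving the first library out thus also leaves a difference in rod markers between the groups. For the enzymes, fits within RPE/choroid that include the rod markers are therefore given as well.

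Between aged and young RPE/choroid no enzyme was called by either rule and no enzyme had groups that did not overlap. Of 16047 genes tested, 0 (0.0%) had an adjusted p under 0.05 by edgeR, 341 had an unadjusted P under 0.05, 1.35% met the study's rule and 7.1% did not overlap, while DESeq2 called 29 genes. Gda stood at 99.0, 106 and 150 CPM in young and 128, 186 and 107 CPM in aged libraries, a log2 fold change of 0.25 (95% interval -0.41 to 0.90). Xdh stood at 212, 168 and 163 CPM in young and 181, 202 and 109 CPM in aged libraries, a log2 fold change of -0.14 (95% interval -0.78 to 0.50). For both genes the ranges of the groups crossed.

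Pnp stood at 229, 234 and 267 CPM in young and 219, 273 and 184 CPM in aged RPE/choroid, a log2 fold change of -0.12 (95% interval -0.57 to 0.33). Ada stood at 38.1, 39.7 and 58.1 CPM in young and 44.5, 54.0 and 38.98 CPM in aged libraries, with 1143 to 2779 counts a library and a log2 fold change of 0.01 (95% interval -0.53 to 0.55). Nt5e stood at 53.7, 46.1 and 21.2 CPM in young and 34.1, 27.1 and 38.1 CPM in aged libraries, a log2 fold change of -0.29 (95% interval -1.15 to 0.57). The young library low in Nt5e was also the one low in rod markers (2139 CPM). The remaining enzymes had log2 fold changes of 0.14 (Ampd3), 0.13 (Ampd2), 0.06 (Hprt1), -0.02 (Adk) and 0.20 (Aprt).

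Between 8-AG and aged RPE/choroid again no enzyme was called by either rule and all groups overlapped. Of 16257 genes, 0 (0.0%) had an adjusted p under 0.05 by edgeR, 274 had an unadjusted P under 0.05, 1.65% met the study's rule and 3.96% did not overlap, while DESeq2 called 81 genes. Pnp stood at 33.3, 264 and 208 CPM in the 8-AG libraries. The log2 fold change was -0.41 (SE 0.71, 95% interval -2.17 to 1.34), and without the first 8-AG library it was 0.07 (SE 0.24). With a rod marker score, the mean log2(CPM + 0.5) of the rod markers in a library, as a covariate it was -1.03 (SE 0.42, unadjusted P = 0.0558 by edgeR), and -0.17 (SE 0.24) when that library was also left out. Ada stood at 6.35, 56.2 and 47.3 CPM, and its log2 fold change went from -0.32 to 0.17 without that library. With the rod score it was -1.01 (SE 0.47, unadjusted P = 0.079 by edgeR), and -0.03 with that library also left out. Aprt stood at 55.7, 218 and 242 CPM and went from -0.22 to 0.20, with -0.56 under the rod score and -0.17 with that library also left out.

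Nt5e, at 68.3, 28.8 and 14.8 CPM in the 8-AG libraries, went from a log2 fold change of 0.21 to -0.60 without the first library. Ampd3, at 33.1, 16.5 and 14.3 CPM, went from 0.10 to -0.40, and Ampd2, at 103, 59.0 and 61.1 CPM, from 0.06 to -0.28. Xdh, at 72.1, 195 and 96.5 CPM, went from -0.42 to -0.17, and Gda, at 90.8, 189 and 100.6 CPM, from -0.13 to 0.04. Adk, at 80.2, 86.3 and 118 CPM, was the enzyme least moved, from 0.17 to 0.26. Hprt1, with its first identifier, went from 0.07 to -0.53, and summing both identifiers gave 0.21 with all libraries. Thus 8 of the 10 enzymes changed sign when 1 library was left out, and none was called either way. With the rod score as a covariate and that library left out, Ampd2 was 0.46 (SE 0.23), opposite in sign to its -0.28. In that fit Nt5e was -0.35, Ampd3 -0.26, Xdh -0.43, Gda -0.29, Adk 0.0029 and Hprt1 -0.40, and none was called.

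**Figure D4:**
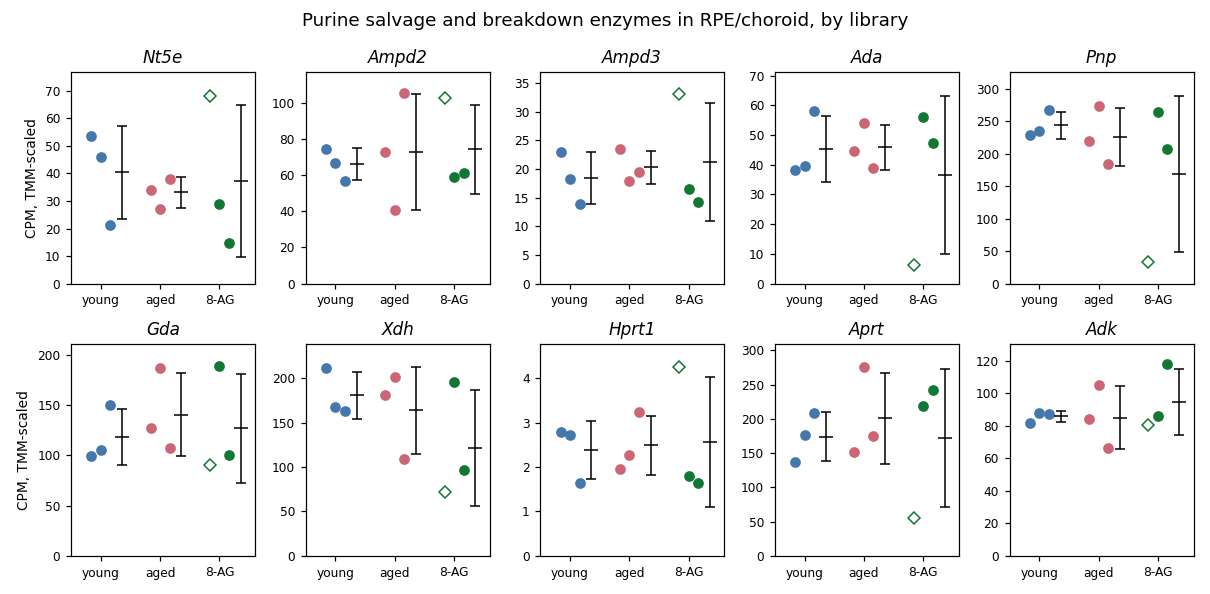
CPM (TMM-scaled, linear axes from 0) of each enzyme gene in the 9 RPE/choroid libraries, 1 point per library, with the mean and SD (n = 3) of each group in black. The open diamond is the first 8-AG library, lowest of all 9 for Pnp (33.3 CPM) and Ada (6.35 CPM) and highest for Nt5e (68.3 CPM), and the groups overlap for every gene.

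Between 8-AG and young RPE/choroid no enzyme was called and all groups overlapped, where 0 (0.0%) of 16215 genes were called by edgeR, 341 had an unadjusted P under 0.05, 1.99% met the study's rule, 5.94% did not overlap and DESeq2 called 98. Log2 fold changes ran from -0.57 for Xdh (95% interval -1.58 to 0.44) to 0.22 for Ampd3 (95% interval -0.78 to 1.22). Pnp gave -0.53 (95% interval -2.29 to 1.23), and -0.04 without the first 8-AG library. Without that library Xdh went to -0.30, Ada from -0.31 to 0.20 and Nt5e from -0.10 to -0.88. Ampd3 went to -0.25, Ampd2 from 0.18 to -0.13 and Hprt1 from 0.11 to -0.46. Gda went from 0.11 to 0.30, Adk from 0.15 to 0.26 and Aprt from -0.01 to 0.41, and 0 of 16484 genes were called by edgeR.

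With a rod marker score as a covariate in the comparison of 8-AG and young RPE/choroid, 2 of the 10 enzymes met the study's rule, where 18.1% of all genes did. They were Pnp at -1.496 (unadjusted P = 0.018 by edgeR) and Ada at -1.34 (unadjusted P = 0.012), with an adjusted p of 0.186 for each. Without the first 8-AG library the same covariate gave -0.24 for Pnp (unadjusted P = 0.369) and -0.33 for Ada (unadjusted P = 0.179), and no enzyme and 4.04% of all genes met the study's rule. That fit gave 0.37 (SE 0.50) for Nt5e, 0.29 for Ampd3, 0.16 for Ampd2, 0.28 for Hprt1 and -0.19 for Gda. These and Ada were opposite in sign to their values above without that library and without the covariate. Xdh (-0.10), Adk (0.20), Aprt (0.021) and Pnp kept their sign. None of the other purine genes or of the RNA deaminases was called in any of the RPE/choroid comparisons, nor in those of the 8-AG group without that library.

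In RPE/choroid the purine genes outside the 10 enzymes are given by the lowest P in each list. In aged against young libraries these were Nt5c1b (log2 fold change 3.56, from 0 to 0.22 CPM in young and 0.42 to 1.52 CPM in aged), Samhd1 (-0.36), Gmps (-0.14), Adsl (0.11), Slc43a3 (0.58) and Abcg2 (-0.59). In 8-AG against aged libraries they were Samhd1 (2.68, SE 1.12), Nt5c1b (-1.30), Adssl1 (2.99, SE 1.80), Adsl (0.53), Slc28a3 (3.01, SE 1.32) and Slc43a3 (-0.67). Without the first 8-AG library these were 0.39 for Samhd1, -1.23 for Nt5c1b, -0.74 for Adssl1, -0.22 for Adsl, 0.87 for Slc28a3 and -0.43 for Slc43a3. In 8-AG against young libraries they were Samhd1 (2.29), Nt5c1b (2.27), Ppat (0.27), Adssl1 (2.79), Slc28a3 (2.73) and Slc28a2 (-0.98). Without that library they were 0.04 for Samhd1, 2.35 for Nt5c1b, 0.19 for Ppat, -0.89 for Adssl1, 0.64 for Slc28a3 and -0.65 for Slc28a2. Samhd1 ranged from 18.6 to 232 CPM and Adssl1 from 5.85 to 475 CPM among the 3 8-AG libraries.

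**Figure D5:**
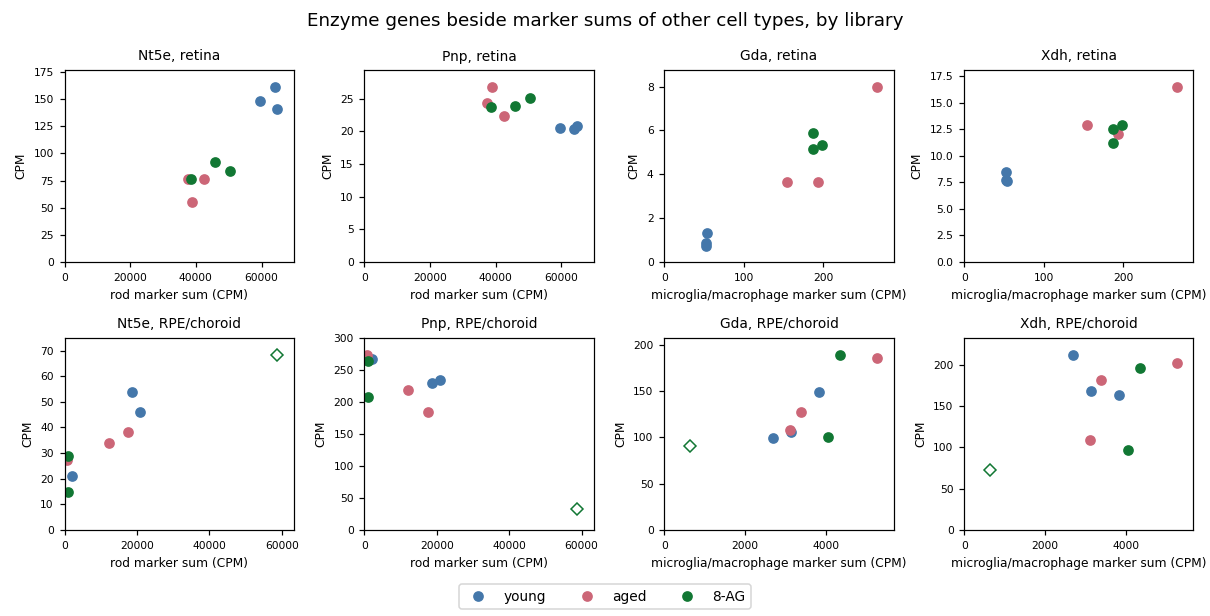
CPM of Nt5e and Pnp against the rod marker sum, and of Gda and Xdh against the microglia and macrophage marker sum, in the 9 libraries of each tissue (1 point per library, linear axes, the open diamond being the first RPE/choroid 8-AG library). In RPE/choroid that library, at a rod sum of 58653 CPM, has the highest Nt5e and the lowest Pnp, and in retina the 3 young libraries lie apart from the aged ones in all panels.

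Whether aging changed an enzyme differently in the 2 tissues was tested as the difference between the within-tissue changes, with limma over 14082 genes. None of the 10 enzymes was called and 1 gene in all was (0.0071%), while 493 genes had an unadjusted P under 0.05, and edgeR called 11 genes, none of them an enzyme. Gda had the largest difference, 2.06 higher in retina on the log2 scale (SE 0.55, 95% interval 0.90 to 3.23, adjusted p = 0.38 by limma). Xdh gave 0.98 (SE 0.39, 95% interval 0.14 to 1.82), and these 2 enzymes met the study's rule, as 3.3% of all genes did. Without the third aged RPE/choroid library only Gda did, with 2.94% of all genes, and Ada joined Gda and Xdh without the second aged RPE/choroid library (3.84% of all genes) and with the replicate number as a block (3.62%). Ada gave 1.96 (95% interval -0.07 to 3.99) and Nt5e gave -0.96 (95% interval -2.14 to 0.23). The other 6 enzymes differed by -0.16 to 0.38. One of them is Hprt1 (-0.15), whose retina value sums both identifiers while its RPE/choroid value holds the first alone. Its tissue differences, for aging and for 8-AG, thus compare unlike values. For the 8-AG change, 0 genes (0.0%) were called by limma or edgeR, 294 had an unadjusted P under 0.05, 1.87% met the study's rule, no enzyme among them, and the enzymes differed by -0.27 to 0.85, the largest being Pnp (95% interval -0.39 to 2.09), which was -0.11 without the first RPE/choroid 8-AG library. Without it the enzymes differed by -0.68 (Ada) to 0.97 (Nt5e), and again none was called by limma.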

How the data were processed

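Bulk RNA-Seq was measured in 9 retina and 9 RPE/choroid libraries, grouped by their labels. The submitters' processing notes list Bowtie2 2.1.0, RSEM 1.2.15, edgeR and build Rnor_6.0, without roles. For retina the authors deposited RSEM expected counts per gene, not normalized (11.5% not whole, rounded here), and a TMM-normalized signal per symbol, which served to pair symbols with identifiers and as an alternative. A value within 1 count of the table's row was taken as equal, and 98.1% of 14881 symbols were. For RPE/choroid the authors deposited raw read counts, and their counting program is not given in the sources used here. The authors' own comparisons hold fold changes and p-values, of which only the gene names were used.

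Within a tissue, 2 groups (6 libraries) at a time entered the model of edgeR 4.0.16, run under R 4.3.3 (filterByExpr, TMM, glmQLFit with robust=TRUE, glmQLFTest). An adjusted p is Benjamini-Hochberg over all genes tested, and a gene was called under 0.05. Tissue differences used limma 3.58.1 on voom values with quality weights. The standard error is the log2 fold change over the square root of F, and 95% intervals follow from it. Fits were tested on simulated data, where the smaller of the changes put in were mostly called in retina and not called in RPE/choroid. Each gene was simulated independently. Differences shared by many genes of a library, such as those in rod markers, were therefore not part of that test. The RPE/choroid depth was larger, but its spread between libraries was wider.

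Alternatives were RLE size factors, DESeq2 1.42.0, no filter, a minimum of 10 counts per library, a joint model of all 3 groups, the replicate number as a block, expected counts not rounded, the deposited TMM values with limma, a rod score covariate, libraries sharing a label number summed, edgeR for the tissue difference, and leaving out each library. Summing both Hprt1 identifiers, the rod score with the first RPE/choroid 8-AG library left out, and leaving that library out for the other purine genes were added after seeing the data.

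All 10 enzymes are named in every comparison. Of the other purine genes, up to 4 per list with the largest change at an adjusted p under 0.05 are named, otherwise the 2 with the lowest P. The members and lists were chosen with earlier results of these data known. Tables used Python 3.11.15 and pandas 2.3.3, and figures matplotlib 3.10.9. Sequencing reads, proteins and metabolites were not analysed here.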

Additional observations from a re-analysis of the deposited data

Results flagged for a closer look

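The second Hprt1 identifier, which the RPE/choroid comparisons did not use, held counts in all 9 RPE/choroid libraries, up to 250 in the first 8-AG library. It was listed here because these counts lie outside the value used for Hprt1 in that tissue. With both identifiers summed Hprt1 was still not called, at a log2 fold change of 0.21 between 8-AG and aged libraries.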

How the results depend on the processing

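The number of enzymes called stayed within 1.5 times its value under all alternatives run, at 3 or 4 in aged against young retinae, 3 or 4 in 8-AG against young retinae and 0 elsewhere. Leaving out each library gave 4 and 3 in those comparisons and 0 in the others. Ada was lost with DESeq2 (2.12, adjusted p 0.076) and was not tested at 10 counts in every library. Whether the replicate numbers pair the libraries was not settled. Deviations of same-numbered libraries correlated from -0.30 to 0.25 in retina and from -0.61 to 0.69 in RPE/choroid. Those of differently numbered libraries correlated from -0.44 to 0.43 and from -0.73 to 0.82. Between aged and 8-AG retinae the same-numbered pairs (0.061 to 0.12) all lay above the others (-0.13 to 0.037). A replicate block gave 4 called enzymes in aged against young retinae, 3 in 8-AG against young retinae and 0 in the other comparisons, and turned the sign of Ampd3 (-0.0032), Hprt1 (-0.057) and Nt5e (-0.059) between 8-AG and aged RPE/choroid. It changed no call of an enzyme at an adjusted p under 0.05, but by the study's rule it added Ada to the aging difference between tissues.

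Signs also turned, always for enzymes not called, for Ampd2 in aged against young retinae at 10 counts (0.0045) and Adk in 8-AG against young retinae with no filter (-0.00066). In RPE/choroid the rod score turned Ada with age (-0.066), Hprt1 between 8-AG and aged (-0.0012), and Gda (-0.052) and Nt5e (0.14) between 8-AG and young. The rod score with the first 8-AG library left out turned Ampd3 (-0.26), Hprt1 (-0.40) and Nt5e (-0.35) between 8-AG and aged, and Gda (-0.19), Nt5e (0.37) and Aprt (0.021) between 8-AG and young. Summing libraries that share a label number turned Ada with age (-0.16), and RLE (0.0073) and DESeq2 (0.0036) turned Aprt between 8-AG and young. In the tissue difference edgeR turned Aprt for aging (-0.019) and Ada for 8-AG (-0.19). The cause was not tested.

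Leaving out 1 library at a time turned the log2 fold change of enzymes that were not called over the following ranges. In aged against young retinae these were Aprt -0.023 to 0.34, Ampd2 -0.054 to 0.060, Hprt1 -0.095 to 0.0094 and Ampd3 -0.13 to 0.17. In 8-AG against aged retinae they were Ampd3 -0.22 to 0.077, Gda -0.11 to 0.57, Pnp -0.081 to 0.055 and Adk -0.16 to 0.0067. In 8-AG against young retinae they were Adk -0.045 to 0.053, Hprt1 -0.018 to 0.17 and Ampd3 -0.13 to 0.013. In aged against young RPE/choroid they were Ada -0.13 to 0.22, Ampd3 -0.040 to 0.33, Hprt1 -0.17 to 0.19, Gda -0.016 to 0.44, Aprt -0.10 to 0.36, Ampd2 -0.22 to 0.41, Xdh -0.32 to 0.091, Adk -0.20 to 0.14 and Pnp -0.28 to 0.019. In 8-AG against aged RPE/choroid they were Hprt1 -0.53 to 0.30, Gda -0.54 to 0.13, Ampd2 -0.28 to 0.42, Aprt -0.55 to 0.20, Ampd3 -0.40 to 0.29, Ada -0.77 to 0.17, Nt5e -0.60 to 0.55, Pnp -0.90 to 0.066 and Adk -0.032 to 0.36. In 8-AG against young RPE/choroid they were Gda -0.28 to 0.34, Nt5e -0.88 to 0.27, Hprt1 -0.46 to 0.35, Aprt -0.34 to 0.41, Ampd3 -0.25 to 0.44, Ampd2 -0.13 to 0.35, Ada -0.74 to 0.20 and Adk -0.039 to 0.26. For the aging difference between tissues they were Aprt -0.20 to 0.31, Ampd2 -0.42 to 0.26, Ampd3 -0.32 to 0.031, Hprt1 -0.30 to 0.13 and Adk -0.024 to 0.32. For the 8-AG difference they were Ampd3 -0.28 to 0.29, Ampd2 -0.51 to 0.16, Pnp -0.11 to 1.40, Ada -0.68 to 0.78, Aprt -0.14 to 0.94, Nt5e -0.13 to 0.97 and Hprt1 -0.072 to 0.58.

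Over all genes, calls between 8-AG and aged retinae were 3, and 18 with DESeq2, 10 with no filter, 4 with limma on the deposited values and 0 with the block or at 10 counts. In RPE/choroid DESeq2 called 29, 81 and 98 genes where edgeR called 0. For the aging difference between tissues limma called 1 gene, edgeR 11, and limma 3 with the block and 0 at 10 counts. By the study's rule Ada was also taken in 8-AG against young retinae with no filter (7.7% of all genes), in the joint model (9.1%) and with limma on the deposited values (8.18%), and Xdh was lost there without the first 8-AG library. Nt5e was taken in aged against young RPE/choroid without the third young library, with 1.39% of all genes. Without the second 8-AG library Xdh was taken in 8-AG against young RPE/choroid, with 7.22% of all genes, and Xdh and Pnp in the 8-AG difference between tissues, with 7.7%.

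Counts of Ada and Gda were low in retina, at 2 to 15 and 10 to 125 a library, and the spread between libraries was wider in RPE/choroid. The part of either in the calls was not tested.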
